A study of Mus musculus with 28 samples.

Results

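The 8 single cells described here come from retinas in an early phase of rod death: 5 Müller glial cells (MGCs) of Rhod-ko mice at 8 weeks of age and 3 MGCs of rd1 mice at P13, out of 28 single-cell arrays in all. The Rhod-ko mice lack the rhodopsin gene, are given as C57/BL6 and are compared at an adult age. The rd1 mice are FVB, with the rod cGMP phosphodiesterase mutated in its beta subunit, and were taken 13 days after birth, so genotype, strain and age change together and cannot be told apart. The study asked how MGCs change while photoreceptors die, and set both models beside adult WT C57/BL6 cells, whose age the labels and the study's text give differently, Rhod-ko cells at 25 weeks, rd1 cells at 5 weeks and WT cells of a congenic FVB strain at P13. Retinas of the mutants came from several litters and were dissociated with papain, cells were picked with a micropipette for their shape, and the cDNA of each was amplified by 35 cycles of PCR before hybridization to an Affymetrix mouse genome array. The Rhod-ko cells are those titled 2, 1, 3, 7 and 8, and their values are always given in that order. The rd1 cells are B4, A4 and B3, in that order, and the other 2 rd1 cells of that age, A1 and B1, were left out because they carried endothelial genes. The cells were thus selected on label and on endothelial signal, and the genes described below were chosen by the same signals, so their differences are a description. Cldn5, the claudin of endothelial tight junctions, read 23455 and 24580.4 in A1 and B1 against 54, 2982 and 996 in the 3 cells kept.

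MGCs span the whole retina, wrap the photoreceptors, clear glutamate through glutamine synthetase and hand retinoids back to cones through CRALBP. When photoreceptors are injured they enter gliosis, a reactive state best known for the filament protein GFAP. Reactive glia can also express genes induced by interferons and by metal or oxidative stress, and can switch on immediate early transcription factors such as Fos within minutes of a stimulus.

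All 8 cells carried MGC genes: of 19 MGC markers measured, the Rhod-ko cells had 14 to 17 on and the rd1 cells 14 to 16, against 8 in A1 and 6 in B1. A gene was called on at a signal of at least 2000. Rod markers differed from cell to cell. Of 16 measured, cells 2, 1 and 3 had 2, 4 and 4 on, cells 7 and 8 had 9 and 10, and the rd1 cells had 9 to 11. Their summed signal ran from 40565 to 112072 in cells 2, 1 and 3, was 298144 in cell 7 and 245833 in cell 8, and ran from 98959 to 211820 in rd1. Cell 7 also carried 7 of 16 microglia markers, with Csf1r, the receptor that keeps microglia alive, at 118151 against at most 1223 in the other 7 cells. Vascular markers were on for 2 to 4 of 13 genes in the 8 cells, against 13 in A1 and 10 in B1. The part of rod and microglia RNA in the differences below was not tested. Counts of the interferon, reactive gliosis, lysosomal and rod marker lists are also given without cells 7 and 8. Leaving both out also raised the number of all genes with every Rhod-ko cell above every rd1 cell. No share over all genes stands beside those list counts. Pde6b, the gene mutated in rd1, read 1204, 3519.5 and 5781 in the rd1 cells and at most 1028 in the Rhod-ko cells. Xist, the RNA of the inactive X chromosome, read 21893, 2021 and 20949 in the rd1 cells and 51 to 671 in the Rhod-ko cells, and Eif2s3y, a Y-linked gene, read 51 to 67 and 947 to 4527. The labels give no sex, and the genes of both sex chromosomes moved with the model.

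The arrays of the 2 models did not share one scale. Each was set by the authors to the same trimmed mean, but the strongest probe set of the Rhod-ko cells lay between 343981 and 971518 and that of the rd1 cells between 86940 and 124791. The 100 strongest probe sets held 22.2% to 35.7% of the summed signal in Rhod-ko and 8.73% to 9.68% in rd1. Rhod-ko cells had 1970 to 2363 genes on, and rd1 cells had 2841 to 3072. For Gapdh, the control probe sets gave a 3′ to 5′ ratio of 3.95 to 18.2 in Rhod-ko and 1.30 to 1.67 in rd1. A strong gene could thus read higher in every Rhod-ko cell at an equal rank within the cell. Differences are therefore given also after quantile normalization of the 8 arrays, which gives every cell the same set of signals. That step does not correct the 3′ to 5′ ratio, whose part in the differences was not tested. Probe sets of 1 gene could also go opposite ways on the deposited scale, as for Rbm39 (4.77 and -2.88) and Hspa8 (2.07 and -2.86). Log2 signals of all genes correlated at r = 0.586 to 0.648 between Rhod-ko cells, 0.562 to 0.656 between rd1 cells and 0.439 to 0.577 across the models, as a description only.

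**Figure D1:**
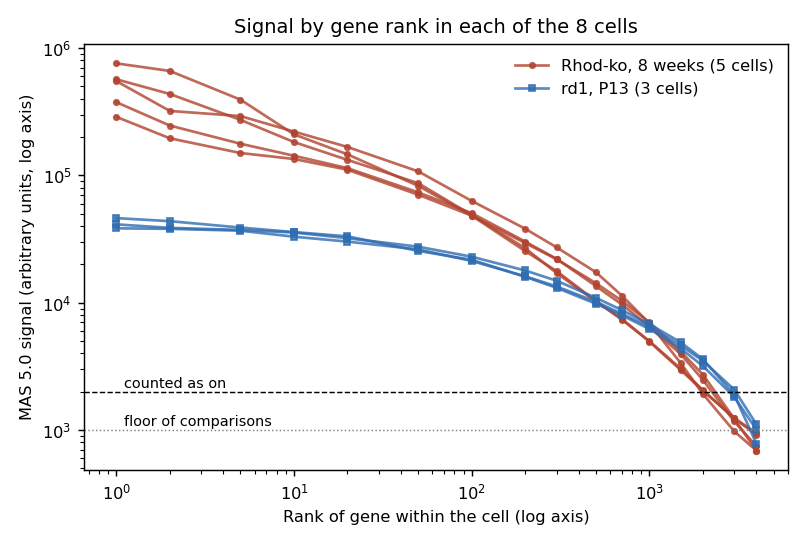
Signal (log axis) of the gene at each rank (log axis) within each of the 5 Rhod-ko cells (red circles) and the 3 rd1 cells (blue squares), with the on threshold of 2000 and the floor of 1000 as lines. The Rhod-ko curves start far above the rd1 curves, meet them between ranks 500 and 1500 and lie below them at rank 2000.

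Of 18194 genes, 713 (3.92%) were at least 2-fold higher in the Rhod-ko cells and 1483 (8.15%) at least 2-fold higher in the rd1 cells. The difference is that of the group medians of log2 signals, with signals under 1000 set to 1000, written as Rhod-ko minus rd1. A gene whose median in 1 model lies under that floor has a difference that is too small by construction. The labels do not tie cells to animals, so each model counts as 1 sample, no test was run, and the only error shown is the spread over cells. Among the 713 genes, 188 (1.03% of all genes) had every Rhod-ko cell above every rd1 cell. Among the 1483 genes, 390 (2.14% of all genes) had every rd1 cell above every Rhod-ko cell. These are the genes counted as without overlap, and genes that differed by less than 2-fold are not among them. Among the 2942 genes on in at least 3 of the 8 cells, the shares at least 2-fold higher were 24.2% in Rhod-ko and 36.1% in rd1. A median over 5 Rhod-ko cells that is 2-fold above the floor needs 3 cells on, so all 713 genes pass that filter by construction. A median over 3 rd1 cells needs only 2 on, and 1061 of the 1483 genes pass. The 2 shares are thus not on equal terms. In adult WT, 70 of the 188 (37.2%) and 154 of the 390 (39.5%) were on in at least 3 of 5 adult WT cells, against 7.61% of all genes, and 41 and 58 were on in 0 of 5. The balance between the models moved with the scale: quantile normalization gave 884 (4.86%) and 1071 genes (5.89%), and scaling to the same 90th percentile gave 991 (5.45%) and 775 (4.26%). Quantile normalization left 176 (0.967%) and 286 genes (1.57%) without overlap. With it 107 of the 188 and 244 of the 390 genes were again without overlap, and under the 90th percentile 188 and 171. Over the 2942 genes the median difference was -0.27, 0.00 and 0.19 on these 3 scales. At the edge of the 2-fold limit, Papss2 lay just inside at 1.00 and Rhoc just outside at 0.99 on the Rhod-ko side, and Eef1e1 (-1.01) and Pigb (-0.995) did so on the rd1 side.

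**Figure D2:**
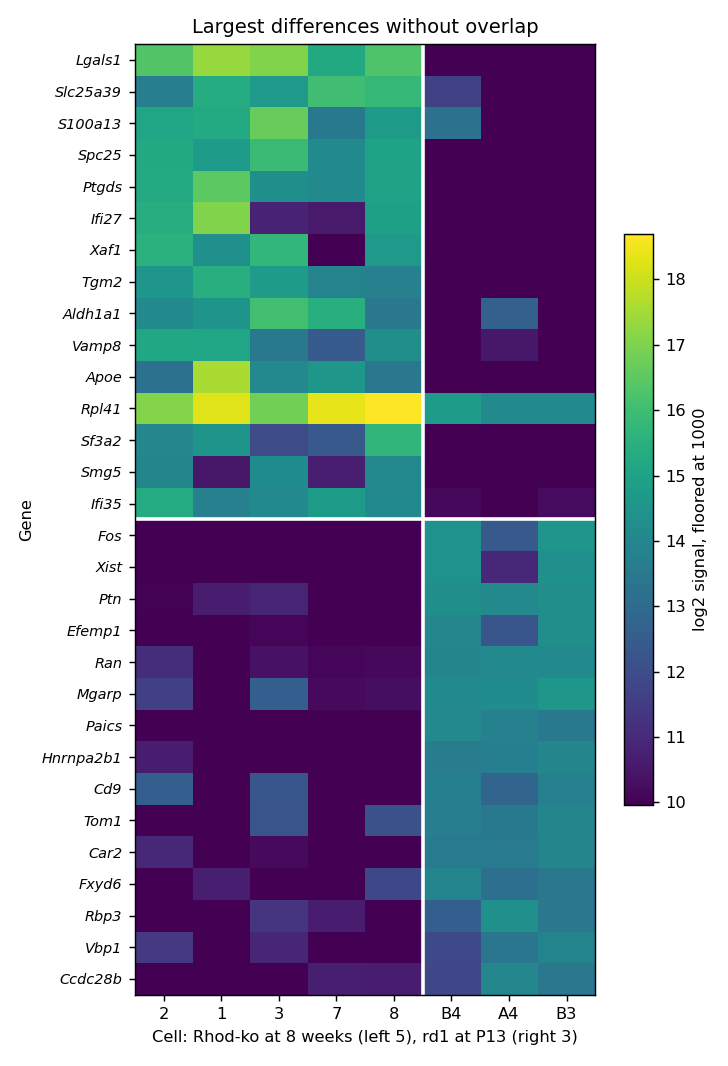
Log2 signal (colour, floored at 1000) of the 15 genes with the largest difference each way among genes without overlap, in the 5 Rhod-ko cells (left columns) and the 3 rd1 cells (right columns). Ifi27, Xaf1 and Smg5 differ widely among the Rhod-ko cells, Ran and Hnrnpa2b1 read alike in the 3 rd1 cells, and Xist and Efemp1 are lower in A4.

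Among interferon-induced genes and genes of antigen presentation, all that differed by at least 2-fold were higher in Rhod-ko, while the median difference of the list was 0.00. Of 22 measured, 6 were at least 2-fold higher in Rhod-ko, 0 were higher in rd1, 10 were under the floor in both, and the counts were again 6 and 0 after quantile normalization. Beside this stand 3.92% and 8.15% of all genes, and 24.2% and 36.1% of genes on in at least 3 cells, with no test of the list against them. The share higher in Rhod-ko, with the 10 genes under the floor in both models counted, is near that 24.2%. The 24.2% is over genes on in at least 3 cells, so the shares do not compare directly. The empty side is that of rd1. Of the 6 genes within 2-fold, B2m (-0.42), H2-D1 (-0.24) and Ifitm2 (-0.10) leaned to rd1. Psmb8 (0.62), Irf7 (0.22) and Tap1 (0.195) leaned to Rhod-ko. Between 6 and 10 of these genes were on in a Rhod-ko cell, against 1 or 2 in an rd1 cell. Ifi35, an interferon-induced leucine zipper protein, read 41241, 13812, 18228, 26791 and 17927 in the Rhod-ko cells and 1145, 71 and 1181 in the rd1 cells. All 5 Rhod-ko cells were far above all 3 rd1 cells, a difference of 3.99 (4.26 after quantile normalization). Ifi27, an interferon-induced gene of mitochondria, read 43779, 133979, 1808, 1532 and 31345 in Rhod-ko and 151, 332 and 118 in rd1. The groups did not overlap, but cells 3 and 7 lay near the floor and the other 3 cells well above it, for a difference of 4.97. Of its 2 probe sets, 1 gave 2.08 without overlap and the other 4.97 with overlap. Tapbp, the tapasin that loads peptides on class I molecules, read 32607, 11362, 2329.7, 8726 and 46961 against 1661, 46 and 97, again without overlap. H2-K1, a class I heavy chain, read 21524, 4714, 5032, 9746 and 5200.2 against 333, 1999 and 1868, with a difference of 1.48. Ifitm3, which blocks virus entry, read 27, 291673, 76408, 68416 and 112473 against 4.6, 59 and 15: cell 2 was as low as the rd1 cells, and the other 4 were high. Ifit3, which binds viral RNA complexes, read 19981, 2250.3, 4745, 2728 and 7714 against 2817, 17 and 23, where rd1 cell B4 overlapped the lowest Rhod-ko cells.

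Xaf1, an interferon-induced partner of the apoptosis inhibitor XIAP and no member of that list, read 47482, 20879, 54705, 513 and 25742 in Rhod-ko and 29, 37 and 22 in rd1. Cells 2, 1, 3 and 8 were high, cell 7 lay below the floor, and every adult WT cell was at 16 to 219. The difference was 4.69, and 4.67 after quantile normalization. Without cells 7 and 8 the list had 9 genes higher in Rhod-ko and 0 in rd1, beside 2 to 4 rod markers on in the 3 Rhod-ko cells left and 9 to 11 in rd1. No share over all genes is given for that set of cells, so the higher count is not read as a result about the list. With A1 and B1 counted as rd1 cells it had 6 and 1, although those cells had 10 and 11 of the 22 genes on, and H2-K1 read 10569.8 and 20867 in them and 6043, 6887 and 7124 in the congenic FVB cells. All 3 congenic FVB cells carried Cldn5 at 23801 to 29446, so no P13 control with MGC genes alone was at hand.

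Many interferon-induced genes carry a known DNA element upstream, and the sequences before 2 of the genes above are shown because 1 holds it and the other does not. The letters TTTCNNTTTC, the core of the interferon-stimulated response element, were searched on both strands of RefSeq promoters of 300 bases (250 before to 50 after the start, GRCm38.p6). They occur in 3.44% of 32851 promoters (3.99% of genes) and in 7 of the 18 genes of the list that have a promoter entry, among them Ifit3, Ifitm3 and B2m. The 160 bases before the start of Ifit3 (chr19:34583369-34583528, plus strand) and of Xaf1 (chr11:72301469-72301628, plus strand) follow, with matches in capitals.
Ifit3: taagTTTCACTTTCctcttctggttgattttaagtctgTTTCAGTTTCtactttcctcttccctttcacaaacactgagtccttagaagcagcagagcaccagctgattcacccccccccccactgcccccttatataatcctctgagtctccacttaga
Xaf1: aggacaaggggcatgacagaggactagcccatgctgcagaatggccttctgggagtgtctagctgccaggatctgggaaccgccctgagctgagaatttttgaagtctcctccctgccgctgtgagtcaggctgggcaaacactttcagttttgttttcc
Ifit3 holds 2 matches, and these letters are not in this window of Xaf1.

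Other genes high in Rhod-ko encode lectins, lipid carriers, retinoid enzymes and matrix crosslinkers. Lgals1, the secreted lectin galectin-1, had the largest difference of all genes without overlap, 6.35 (6.13 after quantile normalization). It read 81697, 167588, 133968, 39754 and 80397 in Rhod-ko and 89, 275 and 309.9 in rd1. Every Rhod-ko cell was high and every rd1 cell was near background, and 1 of 5 adult WT cells was on, at 4771. Tgm2, the tissue transglutaminase, read 23878, 44854, 28343, 14795 and 14003 against 109.5, 190.0 and 252, so all Rhod-ko cells were on and no rd1 cell was. Apoe, the main lipid carrier made by retinal glia, read 9543, 196691, 17427, 24322 and 11246 against 289, 318 and 227, and cell 1 stood far above the other Rhod-ko cells. Adult WT cells read 27794 to 78342 for Apoe, and none of the early cells of either model lay within that range. Rhod-ko cell 1 lay above it, the other Rhod-ko cells lay below it but were on, and no rd1 cell was on. Spc25, a kinetochore subunit that was counted among the MGC markers, read 38967, 28565, 61486, 17561 and 33751 against 44, 106 and 325, and 4 of the 5 WT cells had it on. Aldh1a1, a retinaldehyde dehydrogenase, read 18161, 22819, 68310.1, 45011 and 11321 against 3.6, 6433 and 346, where A4 was the single rd1 cell on. Ptgds, the lipocalin-type prostaglandin D synthase, read 40463, 92188, 20153, 18025 and 32434 against 664, 78 and 93 and was high in all Rhod-ko cells. The remaining genes of the 15 with the largest difference were Slc25a39 (5.39), the mitochondrial glutathione carrier, S100a13 (5.15), a calcium-binding protein, and Vamp8 (4.31), a SNARE of endosomes. Sf3a2 (4.04), a splicing factor, Smg5, of nonsense-mediated decay, and the ribosomal protein gene Rpl41 (4.11) completed them. For Rpl41 the difference was 2.83 after quantile normalization.

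Metallothioneins, which bind zinc and copper, were on in all 8 cells and higher in Rhod-ko. Mt2 read 134326, 213266, 166584, 231409 and 392459 in Rhod-ko and 14393, 9065 and 23426 in rd1. The lowest Rhod-ko cell was several times above the highest rd1 cell, for a difference of 3.89 that came to 2.82 after quantile normalization. Mt1 read 141008, 320242, 245928, 435101 and 659741 against 26327, 20112 and 31925, without overlap, and its difference of 3.61 came to 1.89. In adult WT cells Mt1 ranged from 13 to 50199, with 2 of 5 cells on. Gstm1, a glutathione transferase, read 9297, 68211, 34237, 34243 and 16417 against 4504, 770.2 and 2221, with a difference of 3.95 on the deposited scale and 4.04 after quantile normalization. The antioxidant and metal list had 8 of 31 genes higher in Rhod-ko and 7 higher in rd1, and 5 and 5 after quantile normalization. Beside this stand 3.92% and 8.15% of all genes, and 24.2% and 36.1% of genes on in at least 3 cells. The list's share in Rhod-ko is near that 24.2%, although 7 of its genes were under the floor in both models. The 3 with the largest difference to rd1 act on peroxide, superoxide and thiols. Cat, the catalase, read 6162 to 11494 in rd1 against 495 to 6127 in Rhod-ko, Txn1, thioredoxin, read 5353 to 6523 against 57 to 641, and Sod2, the mitochondrial superoxide dismutase, read 3665 to 6539.5 against 134 to 1433. These 3 genes did not overlap between the models. Sod1, the cytosolic enzyme, was on in every cell and differed by 2.03, and by 0.40 after quantile normalization. The metal response element core TGCNCNC, searched on both strands, occurs in 51.0% of all promoters (53.6% of genes) and in 13 of the 28 list genes with a promoter entry. The 160 bases before the start of Mt2 (chr8:94172458-94172617, plus strand, GRCm38.p6) hold 3 matches, in capitals, and are shown for the metallothionein with the larger difference.
Mt2: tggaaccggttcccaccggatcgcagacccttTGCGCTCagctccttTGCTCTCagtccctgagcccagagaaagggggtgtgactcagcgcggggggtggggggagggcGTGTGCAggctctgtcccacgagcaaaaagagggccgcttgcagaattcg

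Immediate early genes stood on the rd1 side. Of 22 measured, 8 were at least 2-fold higher in rd1 and 0 in Rhod-ko, with 10 under the floor in both, and after quantile normalization the counts were 6 and 0. The list's share higher in rd1 is above the 8.15% of all genes, and its empty side is that of Rhod-ko. That share counts the 10 genes under the floor in both models. It therefore does not compare directly with the 36.1% of genes on in at least 3 cells. Fos, a subunit of AP-1, read 57, 79.9, 103, 52 and 39 in Rhod-ko and 22029.5, 5480.3 and 23174 in rd1. All Rhod-ko cells were at background and all rd1 cells on, for a difference of -4.46, or -2.45 with A1 and B1 counted. Egr1, a zinc finger factor induced by activity, read 294, 55, 319.5, 553 and 2321 against 8533, 5152 and 18827, where cell 8 was the single Rhod-ko cell on. Jun, the partner of Fos, read 270.2, 486, 323, 450.0 and 280.0 against 7017, 15 and 5105, so cells B4 and B3 were on and A4 was not. Btg2, an antiproliferative gene, read 3742, 62, 94, 1075 and 1292 against 20323, 179.6 and 16941, and A4 was again low. Cells B4 and B3 carried most of the list: 10 and 12 of the 22 genes were on in B4 and B3, 5 in A4 and 1 to 5 in the Rhod-ko cells. In adult WT Fos was on in 4 of 5 cells, at 90169, 21689, 5009.5, 19402 and 374, so on Fos it was the Rhod-ko cells that stood apart from WT.

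Secreted factors, membrane proteins and enzymes of MGCs were also found on the rd1 side. Ptn, pleiotrophin, a heparin-binding growth factor for neurons, read 20456, 17419 and 19699 in rd1 and 1028, 1629.8, 1854, 867 and 497 in Rhod-ko. No Rhod-ko cell was on, while all 5 adult WT cells were, at 16028 to 42347. Efemp1, the matrix protein fibulin-3, read 16427, 5034 and 19926 against 144, 109, 1100.0, 891 and 169, with B4 and B3 above A4. Car2, the carbonic anhydrase of MGCs, read 12524, 12174 and 15680.0 against 2004, 341, 1165, 114 and 277, and Cd9, a tetraspanin, read 13461, 7240.1 and 14012 against 6169, 969, 5021, 657 and 517. Car2 was thus uniform in rd1 and low in Rhod-ko, whereas Cd9 came near the rd1 range in cells 2 and 3. Aqp4, the water channel of MGC endfeet, read 16247, 9125 and 16032 against 9104, 4866, 8412, 4108 and 1236, where rd1 cell A4 lay just above Rhod-ko cell 2. Mgarp, a mitochondrial protein, Fxyd6, a regulator of the sodium pump, and Tom1, an endosomal adaptor, differed by -3.91, -3.51 and -3.73. Rbp3, the retinoid carrier secreted by photoreceptors, read 6147, 20907 and 10949.8 against 155, 59, 2512, 1609.7 and 605, beside 9 to 11 rod markers on in these rd1 cells.

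**Figure D3:**
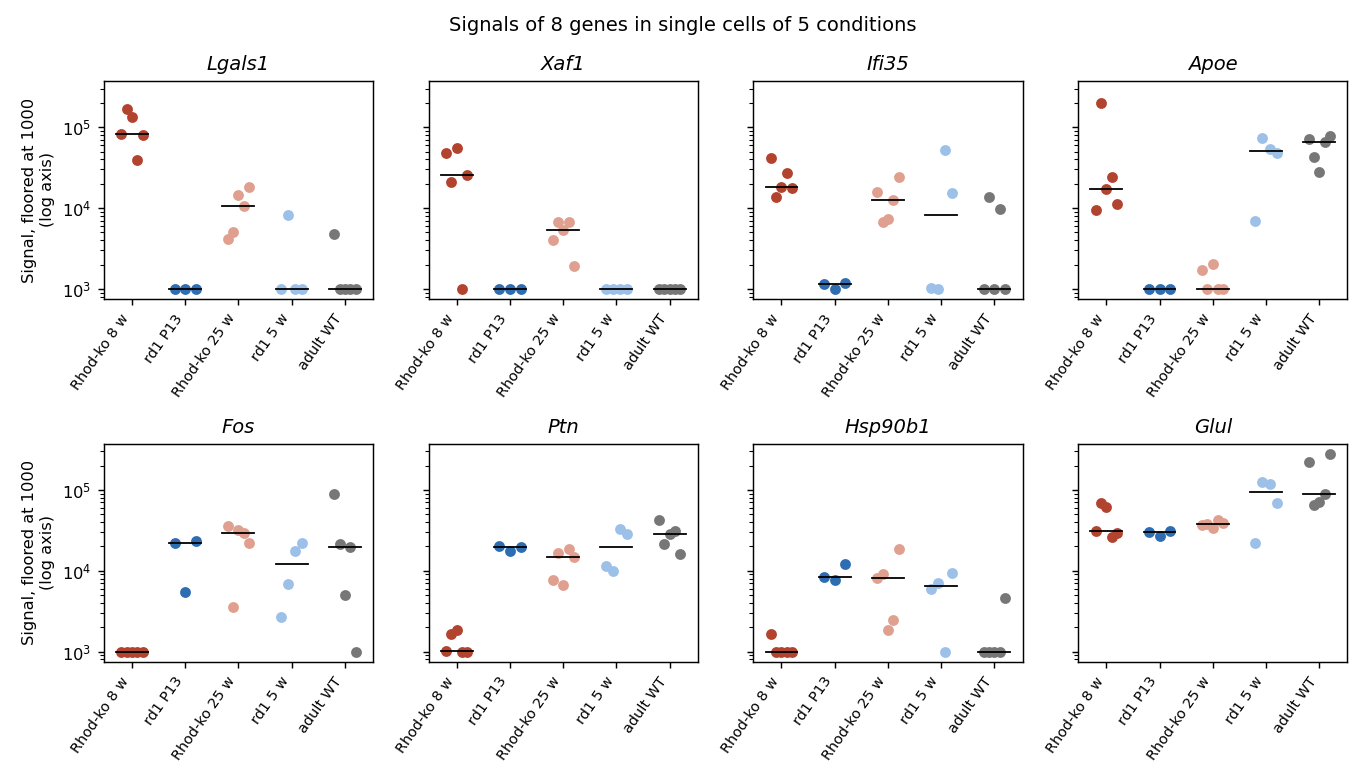
Signals (log axis, floored at 1000) of 8 genes in each cell (points) of 5 conditions, with the median as a line. Lgals1 and Xaf1 have their highest medians in the Rhod-ko cells of both ages, the medians of Fos and Ptn are near the floor in the Rhod-ko cells at 8 weeks and far above it in the other 4 conditions, and Glul is on in every cell.

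Single genes of nuclear transport, RNA binding and protein folding were far higher in rd1, while the shares of their lists were close to that of genes on in at least 3 cells. Ran, the GTPase of nuclear transport, read 16009, 17954 and 17521 in rd1 and 2217, 526, 1353, 1106 and 1136 in Rhod-ko, with a single Rhod-ko cell on. Hnrnpa2b1, which binds and sorts mRNA, read 12752, 13631 and 16188 against 1589.8, 261, 702, 37 and 493, and no Rhod-ko cell was on. Of 27 genes of RNA processing and translation, 9 were higher in rd1 and 2 in Rhod-ko, and 8 and 1 after quantile normalization, or 7 and 5 after scaling to the 90th percentile, with Hnrnpk (-3.05), Srsf1 (-2.48) and Matr3 (-2.44) next in size. Adult WT cells had Hnrnpa2b1 on in 5 of 5 cells. Of 27 chaperones and genes of the unfolded protein response, 10 were higher in rd1 and 3 in Rhod-ko, and 9 and 3 after quantile normalization, or 6 and 5 with a median of 0.00 after scaling to the 90th percentile. Both lists' shares in rd1 are close to the 36.1% of genes on in at least 3 cells. The lists also count 1 and 6 genes under the floor in both models, so the shares do not compare directly. Hsp90b1, the HSP90 of the endoplasmic reticulum, read 8479.5, 7654 and 12005 in rd1 and 1676, 81, 850.0, 343 and 183 in Rhod-ko, where it was never on. Hsp90aa1, its cytosolic relative, was on in all 8 cells but read 15705, 21050.2 and 17684 in rd1 against 4910.0, 6682, 2133, 2726 and 3372. Calr, calreticulin, read 3991, 19901 and 23856 against 14694, 2373, 872, 2614 and 3329, and cell 2 overlapped the rd1 range. Hspa8 went the other way at 2.07 on the deposited scale and -0.15 after quantile normalization, so its direction turned with the scale. Tcp1 (2.81) and Hspa9 (2.03) were also higher in Rhod-ko, with overlap, and kept 2.85 and 2.26 after quantile normalization. Without cells 7 and 8 their differences were 0.466 and 0.996. Paics, of purine synthesis, and Vbp1, a prefoldin subunit, differed by -3.84 and -3.43, and Ccdc28b by -3.43.

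Genes of development, cholesterol synthesis and glycolysis stand beside 3.92% of all genes higher in Rhod-ko and 8.15% in rd1. Among genes on in at least 3 cells the shares were 24.2% and 36.1%. Of the 36 developmental and 20 cholesterol genes, 14 and 13 were under the floor in both models. Their shares therefore do not compare directly with those of genes on in at least 3 cells. Of 36 progenitor and developmental genes 11 were higher in rd1 and 5 in Rhod-ko, and 7 and 2 after quantile normalization, or 6 and 5 after scaling to the 90th percentile. Marcks, a substrate of protein kinase C, read 13361 to 17299 in rd1 and 901 to 2797 in Rhod-ko, Lhx2, a homeobox factor kept in MGCs, read 4594 to 13609.8 against 74 to 3865, and Nfix read 5927 to 15317 against 1204 to 3878. None of these 3 overlapped. Cdkn1b, the cell cycle inhibitor p27, read 12639.8 to 15652 against 801 to 4485, and of 31 cell cycle genes 23 were under the floor in both models. Of 20 genes of cholesterol synthesis 5 were higher in rd1 and 0 in Rhod-ko, but 2 and 1 after quantile normalization and 2 and 0 after scaling to the 90th percentile. Hmgcs1, which starts the pathway, read 3560.4, 9081 and 8199 in rd1 and 3035, 479.8, 735, 4282 and 815 in Rhod-ko, with an overlap through cell 7. Ldha, a subunit of lactate dehydrogenase, read 15557, 18459.6 and 18937 against 1913, 6162, 3688, 1943 and 5453, without overlap, in a glycolysis list with 6 of 19 genes higher in rd1 and 4 in Rhod-ko.

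Reactive gliosis genes were on in both models. Of 31 measured, 9 were higher in Rhod-ko and 4 in rd1, 12 were under the floor in both, and after quantile normalization the counts were 8 and 5. The share higher in Rhod-ko, with the 12 genes under the floor in both counted, is near the 24.2% of genes on in at least 3 cells. The 2 shares are over unlike sets and do not compare directly. Without cells 7 and 8 the counts were 9 and 1, with no share over all genes beside them. Gfap, the filament protein of gliosis, read 83415, 69, 20038, 66692 and 79269 in Rhod-ko and 22705, 22292 and 11717 in rd1. It was on in every cell but Rhod-ko cell 1, and its difference of 1.58 was 0.66 after quantile normalization and -0.15 without cells 7 and 8. A second Gfap probe set gave 0.44. Serpina3n, a serpin secreted by reactive glia, read 25345, 4054, 17170.4, 22401 and 4819.5 against 9012, 4688 and 2249, and was on in all 8 cells, while adult WT cells read 7.9 to 151. S100a6, a calcium-binding protein, read 32818, 4394, 21089, 10582 and 21887 against 25768, 25559 and 21689 and was also on in all 8 cells and in 0 of 5 adult WT cells. Plec, a linker of intermediate filaments, read 29456, 283, 37617, 24924 and 11525 against 7688, 25 and 89, high in all Rhod-ko cells but cell 1, which overlapped. Il6st, the gp130 receptor chain, read 2194, 28308, 20085, 665 and 29003 against 6039, 159.7 and 849, and A2m, a protease inhibitor, read 36790.2, 561, 8432, 20007 and 1571 against 86, 112 and 154. For both, the Rhod-ko cells fell into high and low ones. On the rd1 side, Lgals3, galectin-3, read 10192, 66 and 6189 against 2069, 3595, 47, 55 and 747 and overlapped. Stat3, which carries the signal of gp130, read 2223, 6571 and 3894 against 1081, 50715, 12340.3, 611 and 1055, with cells 1 and 3 far above the rest, and its difference of -1.85 was 1.66 without cells 7 and 8. Vim (0.19, and -2.27 after quantile normalization) and Tgfb2 (0.57) were on in all 8 cells.

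Genes on in all 8 cells numbered 371 (2.04% of genes), and 45 of them (0.247%) were on in at most 1 of 5 adult WT cells. Among the 371, 202 differed by less than 2-fold, 138 were higher in Rhod-ko and 31 in rd1, with a median difference of 0.56. After quantile normalization these became 230, 69 and 72, and the median was 0.03. Glul, the glutamine synthetase, read 31288, 69192, 60587, 26049.7 and 29028 in Rhod-ko and 30177, 27033 and 30726 in rd1, a difference of 0.05 with full overlap on the deposited scale and of -1.69 after quantile normalization. Dbi, which binds acyl-CoA esters, read 50749, 56600.4, 94307, 75261 and 45541 against 38369, 38688 and 39845, and Cryab, the small heat shock protein alpha B crystallin, read 65259.6, 181769, 44887, 43899 and 48358 against 26898, 31727 and 38905. Both read higher in every Rhod-ko cell than in any rd1 cell, and both turned to the rd1 side, at -2.34 and -1.27, after quantile normalization. Rlbp1, which encodes CRALBP, was also on in every cell, and turned from 1.56 to -0.94. Clu, clusterin, a secreted chaperone, read 287791, 549293, 374970.4, 567346 and 756546 against 38018, 41210.3 and 46152, and a difference of 3.74 came to 0.27. Crym (2.36 and 0.32), Pebp1 (3.04 and 0.94), Cox7a2 (2.10 and 0.07) and Gapdh (2.32 and -0.24) shrank in the same way, and Gapdh changed its sign.

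Shared genes that adult WT cells mostly lacked include enzymes of the lysosome and of the mitochondrion. Ctsd, the lysosomal protease cathepsin D, read 21835, 42705, 37149, 43138 and 15834 in Rhod-ko, 18847, 16181 and 23432 in rd1 and 34, 1887, 116, 1938 and 631 in adult WT. The models overlapped, and all 8 cells were above every WT cell. Atp5l, a subunit of ATP synthase, read 15519 to 52495 in Rhod-ko, 18644 to 20202 in rd1 and 11 to 1292 in adult WT. Tecr, of fatty acid elongation, Map4, which binds microtubules, and Pbxip1 were on in all 8 cells and in 1 adult WT cell each. Psme1, an activator of the immunoproteasome, read 6585 to 46449 in Rhod-ko and 5873 to 9383 in rd1 and was on in 1 adult WT cell. Gstp1 read 5983 to 17036 and 13615 to 17545, against 35 to 1961 in WT. Ndufs8, of complex I, and Rpl11 read 6781 to 35458 and 5869.8 to 57887 in Rhod-ko and 8415 to 20776 and 22730.0 to 25149.9 in rd1. The adult WT cells were published earlier than the others by the same laboratory, and age, date of profiling and disease cannot be told apart in this contrast.

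Ribosomal and respiratory genes depended on the scale. Beside the counts stand 3.92% of all genes higher in Rhod-ko and 8.15% in rd1, and 24.2% and 36.1% of genes on in at least 3 cells. After quantile normalization the shares of all genes were 4.86% and 5.89%. Of 44 cytosolic ribosomal protein genes 23 were higher in Rhod-ko and 9 in rd1, with a median of 1.06, but 4 and 11 with a median of -0.06 after quantile normalization. Rps28 read 9693 to 15171 in rd1 and 80.4 to 804 in Rhod-ko, and Rpl7a read 10366 to 17629.9 and 391 to 1294, with differences of -3.51 and -3.64 after quantile normalization. Of 74 genes of oxidative phosphorylation 26 were higher in Rhod-ko and 14 in rd1, with a median of 0.29, against 16 and 17 with a median of 0.01 after quantile normalization. Ndufa2, of complex I, read 62880.0, 156065, 113385, 98079.6 and 33829.6 in Rhod-ko and 5449.6, 14398 and 13623 in rd1, and its difference of 2.85 was 2.19 after quantile normalization. Cox4i1, of complex IV, went from 1.65 to 0.20. The MGC homeostasis list, with 9 of 27 genes higher in Rhod-ko and 8 in rd1, became 5 and 12. Itgav, the alpha V subunit of integrins, which are receptors for cell attachment, read 92919, 15595, 70306, 48782 and 97713 in Rhod-ko and 7686, 4759 and 13847 in rd1. The groups did not overlap, with a difference of 3.19 and 2.91 after quantile normalization.

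**Figure D4:**
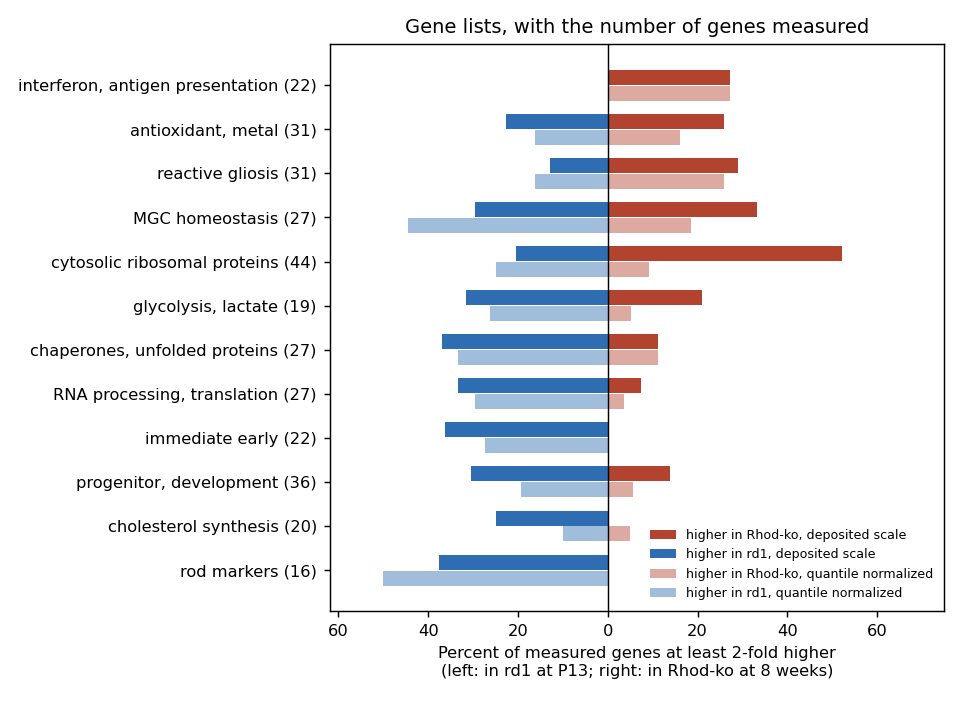
Percent of the measured genes of 12 lists that were at least 2-fold higher in Rhod-ko (right) or rd1 (left), on the deposited scale (dark bars) and after quantile normalization (light bars). The interferon and immediate early lists each lie on 1 side on both scales, and the ribosomal list has its longer bar on the Rhod-ko side on the deposited scale and on the rd1 side after quantile normalization.

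The remaining lists are given by their counts, beside 3.92% of all genes higher in Rhod-ko and 8.15% in rd1. Among genes on in at least 3 cells these shares were 24.2% and 36.1%. Of 25 cytokines and chemokines 2 were higher in Rhod-ko and 3 in rd1, with 16 under the floor in both, and Cxcl16, a chemokine also bound to membranes, read 4801 to 18176 in Rhod-ko and 1771 to 3164 in rd1. Of 20 neurotrophic factors 1 was higher in each model. Of 31 matrix genes 1 was higher in Rhod-ko and 4 in rd1, and of 18 lysosomal genes 4 and 3. Without cells 7 and 8 the lysosomal counts were 6 and 4. Of 16 rod markers 6 were higher in rd1 and 0 in Rhod-ko, and 9 and 0 without cells 7 and 8. No share over all genes is given beside the counts without these cells. Gnat1, the alpha subunit of rod transducin, read 19847 to 35459.6 in rd1 and 523 to 57659 in Rhod-ko. Markers of ganglion cells were on for 3 to 6 of 10 genes in rd1 and 0 or 1 in Rhod-ko, and those of bipolar cells for 2 to 4 of 9 and 0 to 2. Cone, amacrine, horizontal, pericyte and pigment epithelium markers had at most 4 genes on in any of the 8 cells, and astrocyte markers 2 to 4 of 7.

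The later cells of the same models gave measurements independent of the early ones: 5 Rhod-ko cells at 25 weeks and 4 rd1 cells at 5 weeks, where arrays A5 and A6 were averaged as 1 cell because 98.9% of the 5554 probe sets with a mean signal of at least 500 agreed within 2-fold. Over all genes 5.79% were at least 2-fold higher in late Rhod-ko and 3.87% in late rd1, and 20.9% and 14.0% of the 2942 genes, and 0.308% and 0.17% of all genes were without overlap. Of the 188 genes higher in early Rhod-ko, 25 (13.3%) were again at least 2-fold higher and 22 (11.7%) were higher in rd1, with 54 under the floor in both. Of the 390 genes higher in early rd1, 46 (11.8%) were again higher in rd1 and 92 (23.6%) were higher in Rhod-ko. The shares that kept their direction, 13.3% and 11.8%, lay above those of all genes and below those of the 2942 genes. Among those that did, Xaf1, Spc25 and Trim28 were without overlap in the same direction at both times. Xaf1 read 4068, 6635, 5413, 6816 and 1927 in late Rhod-ko and 11, 54, 129 and 46 in late rd1, so all 5 late Rhod-ko cells were above all late rd1 cells. Spc25 read 20942 to 36716 against 87 to 332. Among genes at least 2-fold higher in Rhod-ko over both ages, only Xaf1 and Spc25 had every Rhod-ko signal above every rd1 signal. Trim28, a transcriptional corepressor, read 8599 to 11624 against 113 to 5579. Galnt13, which starts O-glycans, was the only gene without overlap at both times on the rd1 side, at 3009 to 14111 against 4.2 to 2178. Lgals1 differed by 3.40 late, with Rhod-ko at 4171, 4993, 14455, 10550.2 and 18253 and rd1 at 222, 8190.1, 526 and 105, where 1 rd1 cell overlapped. Ifi35 differed by 1.67, while Tapbp (-1.51) and Ifitm3 (-3.97) lay on the rd1 side, and the interferon list had 3 genes higher in each model.

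Some early differences had the opposite direction in the later cells; the change itself was not tested. Apoe read 1702, 159, 2033, 20.1 and 237 in late Rhod-ko and 6859, 73372, 53676 and 47707 in late rd1, the opposite of the early cells and without overlap at either time. Atp5k, of ATP synthase, and Rps20, a ribosomal protein gene, did likewise, with early differences of 2.65 and 1.87 and late ones of -2.14 and -1.24. After quantile normalization their early differences were 1.94 and 0.065. Phlpp1, a phosphatase of AKT, Psma3, of the proteasome, Rida, a deaminase, and Trib2, a pseudokinase, were higher in rd1 early and in Rhod-ko late. The immediate early list had 10 genes higher in late Rhod-ko and 0 in late rd1. Egr1 read 32109, 2303, 32419.5, 27097 and 14357 in late Rhod-ko and 1888, 5732, 225 and 2057 in late rd1, and Fos read 35461, 3587, 31480.2, 29154 and 22083 and 2671, 6839, 17571 and 21868. All late Rhod-ko cells thus had Fos on, unlike every early one. Ptn, Car2 and Ran, low in early Rhod-ko, read 6659.5 to 18692, 13878 to 18208 and 15300.0 to 20842 in the late Rhod-ko cells, all on. The Rhod-ko arrays of the 2 ages also differed as a whole. Genes on numbered 1970 to 2363 early and 2670 to 3123 late. The Gapdh 3′ to 5′ ratio was 3.95 to 18.2 early and 1.17 to 2.05 late. The part of this in the changes of single genes was not tested.

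**Figure D5:**
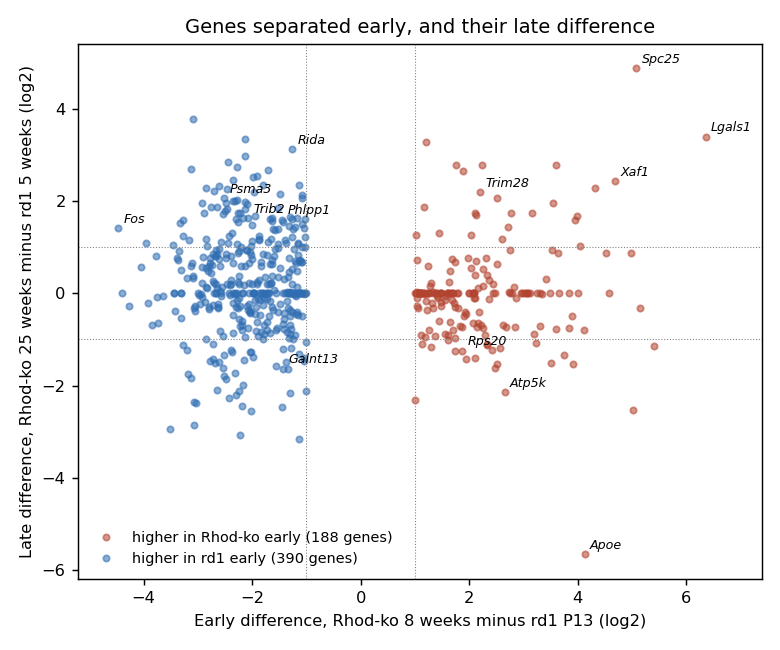
Late difference (Rhod-ko at 25 weeks minus rd1 at 5 weeks) against early difference (Rhod-ko at 8 weeks minus rd1 at P13), both log2, for the 188 and 390 genes without overlap early. Points spread to both sides of 0 on the late axis, Xaf1 and Spc25 lie above 2 on both, and Apoe lies at 4.12 early and -5.66 late.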

How the data were processed

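Single MGCs were profiled on Affymetrix mouse genome arrays. The deposited values are signal intensities on a linear scale, which the authors computed with MAS 5.0 and scaled to a trimmed mean of about 500 for each array; depth does not apply to arrays, and the number of cells limits the precision. Of 45101 probe sets, 34958 carry 1 gene symbol and 34754 were matched by Entrez identifier. Probe sets with several symbols or none were not used. The strongest probe set stood for a gene in each cell, signals were floored at 1000 and group medians of log2 signals were compared with pandas 2.3.3 and NumPy 2.4.6. The scripts were tested on simulated data. Members, gene lists (32, with 634 of 714 entries measured) and thresholds were chosen with earlier results of these data known. No P13 control was used. Named were the 15 largest differences each way without overlap, the 10 genes on in all 8 cells with the highest lowest signal (ribosomal protein genes left out), 10 such genes on in at most 1 adult WT cell, up to 4 genes per list, genes the study names or an earlier account gave, and genes without overlap over both ages. H2-K1, Ifit3, Cldn5, Csf1r, Tyrobp, the genes that turned with age, Trim28, Galnt13, Xist, Eif2s3y and Pde6b were added after their values were seen. Alternatives were other scalings, floors, thresholds, probe set rules, group means and other sets of cells.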

Additional observations from a re-analysis of the deposited data

Results flagged for a closer look

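Among 107 values checked over the 5 Rhod-ko cells at 8 weeks, 20 had 1 cell far from the other 4, by a ratio of the gap to the range above 0.71. The ratio flags about 1 in 20 groups by chance, a rate that does not apply here, since the genes were chosen and signals were floored: in 9 of the 20, the other 4 cells were all at the floor. Cell 7 was low for Xaf1 (512.6) and high for Csf1r (118151.2) and for the number of microglia markers on (7). Cell 2 was low for Ifitm3 (27.0) and Sod1 (54680.9), and high for Hnrnpa2b1 (1589.8), Car2 (2004.4), Btg2 (3741.7), Hsp90b1 (1676.0) and Psma3 (1414.8). Cell 1 was low for Hspa8 (39006.5) and high for Matr3 (3229.1), Cryab (181769.2) and S100a1 (256132.5). Cell 8 was high for Egr1 (2321.2), Trib2 (1013.0), Pde6b (1027.8) and Cldn5 (3095.3), and cell 3 for Efemp1 (1100.0) and Rpl7a (1293.5).

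For 7 genes the models were at least 2-fold apart without overlap both early and late, in opposite directions, and the change between the ages was not tested. All of these differences are on the deposited scale. The early and late differences were 4.12 and -5.66 for Apoe, 2.65 and -2.14 for Atp5k, and 1.87 and -1.24 for Rps20. They were -1.44 and 1.60 for Phlpp1, -2.51 and 2.06 for Psma3, -1.26 and 3.13 for Rida, and -2.07 and 1.63 for Trib2.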

How the results depend on the processing

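No paired analysis was possible because no animal or litter is named for any cell and no test was run. The 713 genes at least 2-fold higher in Rhod-ko became 1222 with a floor of 500, and the 1483 higher in rd1 became 775 after scaling to the 90th percentile and 750 with a floor of 2000. The 188 genes without overlap became 309 after scaling to the 90th percentile, 332 without cells 7 and 8 and 390 with a floor of 500. The 390 genes became 171 after scaling to the 90th percentile, 176 with all 5 rd1 cells and 239 with a floor of 2000. The 371 genes on in all 8 cells were 962, 584 and 109 at thresholds of 500, 1000 and 10000. The 25 Rhod-ko genes also higher late became 13 with all 5 rd1 cells, 52 without cells 7 and 8 and 47 with a floor of 500, and the 46 rd1 genes became 19 with all 5 rd1 cells and 26 with a floor of 2000. Leaving out 1 cell at a time gave 426 to 715 for the 390 genes (652, 715 and 666 without B4, A4 and B3), 31 to 41 for the 25 genes (39 without cell 2) and 53 to 81 for the 46, with fewer cells having to lie apart. It gave 0.77 to 1.17 for the ribosomal median, -0.92 (without A4) to -0.089 for the immediate early one, -0.81 to -0.46 for RNA processing and 0.00 to 0.03 for interferon. The ribosomal median of 1.06 was -0.057 after quantile normalization, 1.74 after scaling to the 90th percentile and 0.53 with all 5 rd1 cells. The interferon median of 0.00 was 0.38 after quantile normalization, 0.32 after scaling to the 90th percentile, 0.35 with a floor of 500 and 0.43 by group means. The immediate early median of -0.27 was -0.99 with a floor of 500, and that of RNA processing, -0.77, was 0.00 after scaling to the 90th percentile, -0.28 without cells 7 and 8 and -0.26 with a floor of 2000. Hspa8 (-0.15), Rlbp1 (-0.94) and Gapdh (-0.24) turned to rd1 after quantile normalization, Gfap (-0.15) and Stat3 (1.66) turned without cells 7 and 8, and the cause was not tested. Of 80 named genes that differed by at least 2-fold, 65 kept it after quantile normalization, 75 after scaling to the 90th percentile and 74 with all 5 rd1 cells.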
